A study of Mus musculus with 14 samples.

Results

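The genes described here are 10 chemokine genes, Ccl2, Ccl3, Ccl4, Ccl5, Ccl7, Ccl12, Cxcl2, Cxcl10, Cxcl13 and Cxcl16, listed by symbol and found by their Ensembl IDs among the 41739 genes of the table. Microglia, the resident macrophages of the brain, were purified with magnetic beads from mouse brains, and their RNA was sequenced in 14 libraries. All mice carried floxed Rheb alleles (Rheb F/F). Mice with these alleles alone are called WT, and mice that in addition carried the tamoxifen-inducible Cre recombinase Tmem119-cre ER, driven by a gene of microglia, are called KO. Both genotypes received tamoxifen and then, at an age of 8 weeks, PBS or the bacterial endotoxin LPS at 1.0 mg/kg, injected into the peritoneum daily for 4 days. Each PBS group had 3 libraries and each LPS group had 4, and no group carried Cre without floxed Rheb. The series compares what loss of Rheb, an activator of the growth kinase complex mTORC1, does to microglia at rest and after endotoxin.

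Chemokines are small secreted proteins that guide the migration of leukocytes through G protein-coupled receptors. The CC and CXC families are named for the spacing of their first cysteines. In the brain, microglia and other cells release them when toll-like receptors sense bacterial products, and transcription factors of the NF-kB and interferon regulatory factor families act on many of their promoters. Ccl2, Ccl7 and Ccl12 encode ligands of CCR2, which draws monocytes. Ccl3, Ccl4 and Ccl5 encode inflammatory CC chemokines that draw monocytes and T cells. Cxcl2 encodes a ligand of CXCR2 on neutrophils, Cxcl10 an interferon-induced ligand of CXCR3, Cxcl13 the B cell attractant that binds CXCR5, and Cxcl16 a membrane-bound ligand of CXCR6 that can be shed. In the RefSeq order of protein-coding genes (GRCm38.p6), Ccl2 lay next to Ccl7, with Ccl11 between Ccl7 and Ccl12. Ccl3 lay next to Ccl4 on the same chromosome, 11, which also holds Ccl5 and Cxcl16. Cxcl2, Cxcl10 and Cxcl13 lie on chromosome 5.

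Promoter sequences from RefSeq were matched for 5 of the 10 genes, Cxcl2, Cxcl10, Cxcl13, Ccl12 and Ccl3. Of these, 3 CXC promoters are shown because their genes were all higher in LPS than in PBS libraries, by quite different amounts, while the letters before their starts differ. Each line holds the 250 bases before the annotated start, 5′ to 3′ on the gene's strand. Cxcl2 is at chr5:90903649-90903898 on the + strand, Cxcl10 at chr5:92348890-92349139 on the - strand and Cxcl13 at chr5:95956689-95956938 on the + strand, all in GRCm38.p6. Capitals mark matches on either strand to the NF-kB consensus, to the interferon-stimulated response element (ISRE, TTTCNNTTTC) and to the AP-1 motif (TGANTCA).

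Cxcl2: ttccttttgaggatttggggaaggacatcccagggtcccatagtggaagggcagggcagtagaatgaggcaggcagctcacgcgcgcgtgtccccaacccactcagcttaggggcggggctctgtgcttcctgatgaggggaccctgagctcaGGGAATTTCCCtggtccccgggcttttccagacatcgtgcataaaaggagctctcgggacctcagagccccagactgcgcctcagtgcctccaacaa

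Cxcl10: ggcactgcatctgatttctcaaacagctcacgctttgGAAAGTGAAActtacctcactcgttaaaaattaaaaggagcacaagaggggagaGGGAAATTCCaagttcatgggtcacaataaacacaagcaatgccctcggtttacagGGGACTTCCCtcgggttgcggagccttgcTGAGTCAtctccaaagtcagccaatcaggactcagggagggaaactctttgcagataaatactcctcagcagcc

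Cxcl13: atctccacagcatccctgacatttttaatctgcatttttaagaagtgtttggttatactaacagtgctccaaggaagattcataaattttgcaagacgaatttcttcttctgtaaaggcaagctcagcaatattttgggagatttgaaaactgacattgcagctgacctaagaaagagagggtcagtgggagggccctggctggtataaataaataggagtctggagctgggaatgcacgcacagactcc

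In the Cxcl2 window, 2 NF-kB matches overlapped, 1 on each strand, between 97 and 87 bases before the start. The Cxcl10 window held 2 NF-kB matches, at 159 to 150 and 103 to 94 bases before the start, 1 ISRE match at 213 to 204 and 1 AP-1 match at 74 to 68. The windows of Cxcl13, Ccl12 and Ccl3 held 0 matches to these 3 motifs, which says only that these letters are not in these 250 bases. Among 32851 promoters of the same length, 3.9% held an NF-kB match, 2.98% an ISRE match and 6.75% an AP-1 match. A match describes letters and not a bound site.

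The values are TPM, transcript abundances scaled to one total per library, a level per gene length that allows genes to be compared within a library. The reads behind them, recovered from the table, came to 8.00 M to 32.3 M per library, where M stands for 1000000 reads. Nothing in the labels ties each library to an animal of its own, and the p-values therefore measure a spread between libraries that may be technical. Rheb, the targeted gene, ranged from 29.7 to 34.5 TPM over WT PBS libraries and from 16.6 to 19.1 TPM over KO PBS libraries, without overlap. Under LPS its ranges were 25.1 to 33.6 TPM (WT) and 19.5 to 25.5 TPM (KO), and they overlapped. The 8 microglial markers summed to 9156 TPM in the lowest library (KO_LPS_1) and 26336 TPM in the highest (WT_PBS_904), so transcripts of the labelled cell type were abundant throughout, and the sum was lower in every LPS than in every PBS library. Transcripts of other cells were also present. Ttr of the choroid plexus stood at 2246 TPM or more in all libraries and was lower on average after LPS. Its mean was 18496 TPM in WT PBS and 19807 TPM in KO PBS, against 5472 TPM in WT LPS and 7435 TPM in KO LPS. The neutrophil markers summed to 5099 to 24706 TPM. The libraries WT_PBS_914 and KO_LPS_3 carried pituitary transcripts: Gh made up 7.81% of WT_PBS_914 and 1.97% of KO_LPS_3. The Y-linked gene Ddx3y stood at 111 TPM or more in all PBS and at most 0.270 TPM in all LPS libraries. Xist, of the inactive X, stood at most at 0.147 TPM in all PBS and at 255 TPM or more in all LPS libraries. Sex, which the design text gives as female, therefore ran with treatment and cannot be told apart from it in any LPS to PBS value. The gene Gm23935 was also split by treatment, at 0.0566% to 0.248% of PBS libraries and 4.04% to 15.4% of LPS libraries. It takes up part of the fixed total of TPM, and a fit with it removed was among the alternatives. The cause of that split was not tested. The comparisons share groups with each other, so each is given by its own values.

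All 10 chemokine genes had higher mRNA in every LPS library than in any PBS library of the same genotype. By limma, with p-values adjusted over 18724 genes and a gene called at an adjusted p under 0.05, 10 of 10 rose in WT and 9 of 10 in KO. Ccl4 was the exception in KO. For comparison, 7.95% of all genes tested rose in WT and 7.82% in KO, while 34.1% and 26.9% fell, which makes 42% and 34.7% in either direction. Groups did not overlap, with LPS higher, for 8.45% of all genes in WT and 9.52% in KO. The median log2 fold change of TPM + 1 over the 10 genes was 2.97 in WT and 2.05 in KO, against -0.28 and -0.22 over all genes. The exact two-sided permutation test of mean TPM gave p = 0.0571 for each gene in each genotype, the smallest that 4 libraries against 3 allow. Added up per library, the 10 transcripts came to 686 to 994.5 TPM (WT PBS), 811 to 1399.6 TPM (KO PBS), 4506 to 10973 TPM (WT LPS) and 3217 to 6329 TPM (KO LPS). In bulk RNA, more cells of a type and more RNA per cell cannot be told apart.

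**Figure D1:**
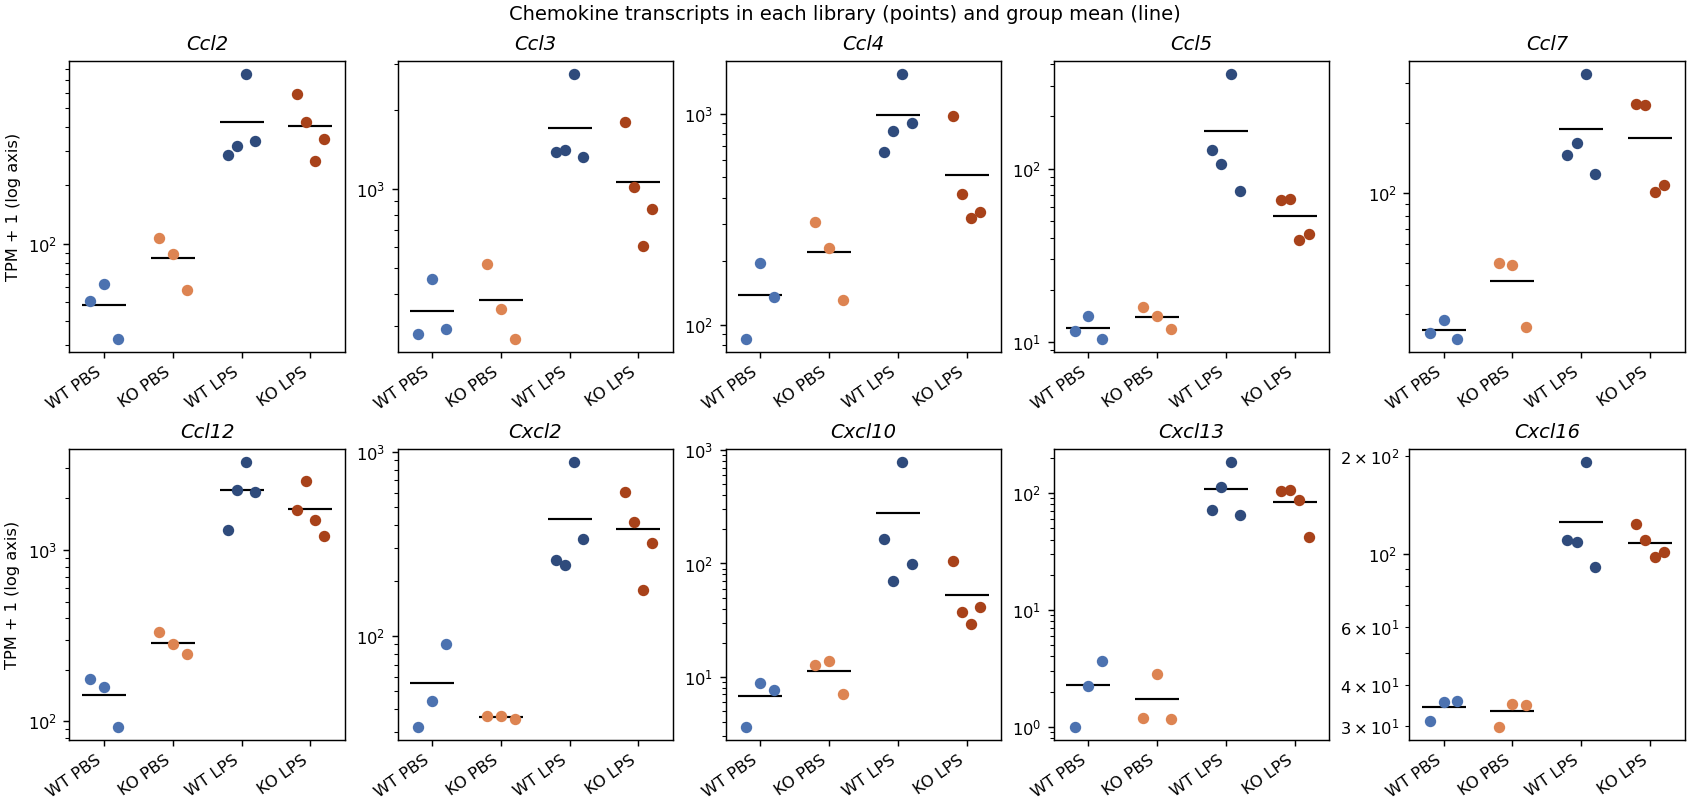
TPM plus 1 on a log axis for the 10 chemokine genes, with 1 panel per gene, 1 point per library and a line at the group mean, with 3 libraries in each PBS group and 4 in each LPS group. Every LPS point lies above every PBS point of its genotype in all 10 panels, and the topmost WT LPS point is WT_LPS_3 in each.

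Of the CCR2 ligands, Ccl12 had the highest mean of the 10 genes in both LPS groups, whereas Ccl7 was seventh in WT LPS and sixth in KO LPS. Ccl12 stood at 175, 157 and 91.9 TPM in the WT PBS libraries and at 331, 281 and 245 TPM in the KO PBS libraries. After LPS it stood at 1299, 2236, 3246 and 2173 TPM in WT and at 1721, 2519, 1501 and 1200.4 TPM in KO. All KO PBS libraries thus lay above all WT PBS libraries, whereas under LPS the genotypes overlapped. Ccl12 rose with LPS by 3.96 ± 0.31 on the log2 scale in WT (SE, adjusted p = 4.32e-06, limma) and by 2.56 ± 0.31 in KO (adjusted p = 8.19e-05).

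Ccl2, which encodes the monocyte attractant MCP-1, ranged from 31.4 to 61.1 TPM over WT PBS and from 57.0 to 106 TPM over KO PBS libraries. Under LPS its range was 287 to 749 TPM (WT) and 267 to 591 TPM (KO). Its neighbour Ccl7, encoding MCP-3, was lower throughout, at 22.5 to 27.3, 25.3 to 49.1, 120.0 to 325 and 99.8 to 242 TPM in the same order of groups. In WT the LPS rise was 3.07 on the log2 scale for Ccl2 and 2.78 for Ccl7, and in KO it was 2.25 and 1.98. Markers of monocytes, the cells that CCR2 marks, moved with these genes. All 7 listed markers were called higher with LPS in both genotypes, against 7.95% of all genes in WT and 7.82% in KO. The summed monocyte markers went from 321 to 1013 TPM in WT PBS and 266 to 443 TPM in KO PBS to 1271 to 2457 TPM in WT LPS and 1279 to 1814 TPM in KO LPS. Ccr2 itself, the receptor of these ligands, chosen for that role after its values were seen, rose by 0.88 in WT and 0.86 in KO on the log2 scale. The part of these cells in the chemokine values was not tested.

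Ccl3 and Ccl4 were among the 3 genes with the highest resting means in both genotypes. Ccl3, encoding MIP-1 alpha, was first of the 10 by its mean in both PBS groups, at 278, 453 and 292 TPM in WT and 517, 349 and 268 TPM in KO. After LPS, Ccl3 stood at 1387, 1406, 2746 and 1326 TPM in WT and at 1807, 1020.4, 604 and 837 TPM in KO. Only the KO library KO_LPS_1 reached the range of WT there. The log2 rise of Ccl3 with LPS was 2.29 ± 0.36 in WT (SE, adjusted p = 5.16e-04, limma) and 1.43 ± 0.36 in KO (adjusted p = 0.00857).

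Ccl4, encoding MIP-1 beta and lying next to Ccl3, stood at 85.0, 195 and 134 TPM in WT PBS and 305, 229 and 130.4 TPM in KO PBS. After LPS, Ccl4 stood at 658, 823, 1534 and 902 TPM in WT and at 972, 415, 318 and 339 TPM in KO. In KO, the lowest LPS library lay just above the highest PBS library, at 318 against 305 TPM. Ccl4 rose with LPS in WT by 2.82 ± 0.42 (SE, adjusted p = 3.86e-04, limma). In KO the log2 difference was 1.13 ± 0.42 and missed the threshold (adjusted p = 0.0552). It passed under 7 other settings, such as median-of-ratios scaling (1.39, adjusted p = 0.0369), and over all settings its adjusted p ranged from 0.0351 to 0.221.

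Transcripts of immediate early genes, which tissue dissociation is known to induce, had their highest and lowest sums in the same libraries as Ccl4 in 3 of the 4 groups. The 17 listed genes summed to 6125, 9742 and 7350.4 TPM in WT PBS and to 12462, 9853 and 7480.1 TPM in KO PBS. The library with the highest sum was also the one with the highest Ccl3 and Ccl4 in WT PBS (WT_PBS_913), KO PBS (KO_PBS_911) and KO LPS (KO_LPS_1, 13250.1 TPM), and the lowest was also lowest for Ccl4 in these groups. In WT LPS this was not so, WT_LPS_3 having the lowest sum, 7124 TPM, and the highest Ccl3 and Ccl4. WT_LPS_4 had the highest sum, 8959 TPM, and the lowest Ccl3, 1326 TPM. Its Ccl4 was not the lowest, at 902 TPM against 658 TPM in WT_LPS_1. The part of dissociation in these values was not tested.

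Ccl5, encoding the T cell attractant RANTES, was low at rest, at 9.49 to 13.1 TPM in WT PBS and 10.9 to 14.9 TPM in KO PBS, on 46 to 70 reads per library. After LPS it stood at 127, 106, 348 and 73.3 TPM in WT and at 64.8, 65.9, 37.9 and 41.1 TPM in KO. Every KO LPS library was below every WT LPS library, by a margin of 65.9 against 73.3 TPM. Its log2 rise with LPS was 3.52 in WT and 1.90 in KO. The 12 markers of T and NK cells, which also make Ccl5, summed to 19.5 to 48.4 TPM over all PBS libraries, 36.5 to 75.1 TPM over WT LPS and 44.6 to 107 TPM over KO LPS libraries. Their part in the Ccl5 values was not tested. The T cell receptor subunit transcripts Cd3e, Cd3d and Cd3g were each at most 1.82 TPM in any library. Other markers of the list rose: of 7 tested, 2 were called higher with LPS in WT and 3 in KO. Over all genes tested these shares were 7.95% and 7.82%. Gzma, called in both, went from a mean of 6.58 to 29.9 TPM in WT and from 6.27 to 28.1 TPM in KO.

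Cxcl2, encoding the neutrophil attractant MIP-2, stood at 31.2, 43.6 and 89.0 TPM in WT PBS and at 36.0, 35.6 and 34.4 TPM in KO PBS. After LPS it stood at 259, 242, 876 and 337 TPM in WT and at 603, 414, 177 and 319 TPM in KO. The KO PBS libraries were almost equal, whereas in WT PBS the library WT_PBS_914 stood apart. That library also had the highest sum of neutrophil markers in WT PBS, 23424 TPM against 5655 and 7753 TPM. The libraries with the highest Cxcl2 in the LPS groups, WT_LPS_3 and KO_LPS_1, likewise held the highest neutrophil sums, 21591 and 24706 TPM, but WT_LPS_4 and KO_LPS_2 came close to them, at 19917 and 23398 TPM, with much less Cxcl2. With LPS, 0 of the 9 neutrophil markers were called higher in WT and 4 in KO, against 7.95% and 7.82% of all genes. The part of neutrophils in the Cxcl2 values was not tested. Cxcl2 rose with LPS by 2.87 ± 0.48 in WT (SE, adjusted p = 6.98e-04, limma) and by 3.25 ± 0.48 in KO (adjusted p = 2.87e-04).

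Cxcl10, whose promoter window held NF-kB, ISRE and AP-1 letters, had the widest spread of the 10 genes between LPS libraries, with a log2 SD of 1.53 in WT and 0.80 in KO. It stood at 2.64, 7.80 and 6.74 TPM in WT PBS and at 11.8, 12.7 and 6.06 TPM in KO PBS. After LPS, Cxcl10 stood at 164, 69.0, 778 and 97.8 TPM in WT and at 104, 36.1, 28.5 and 40.4 TPM in KO. WT_LPS_3 was 11.3 times the lowest WT LPS library, and KO_LPS_1 lay within the WT range. Cxcl10 rose by 4.78 ± 0.69 in WT (SE, adjusted p = 3.06e-04, limma) and by 2.12 ± 0.69 in KO (adjusted p = 0.0305). The KO call was lost without KO_LPS_1 (1.73, adjusted p = 0.0779), without KO_PBS_911 (2.24, 0.0576), without KO_PBS_912 (2.29, 0.0566) and without KO_PBS_915 (1.81, 0.11), where each pair is a log2 fold change and its adjusted p. The exons of Cxcl10 overlap those of Art3 on the opposite strand, and those of Cxcl16 overlap Zmynd15, and the labels do not state strand. Art3 stood at 4.01 to 13.7 TPM over all libraries and did not follow Cxcl10 upwards, and the PBS values of Cxcl10, which are as low, are uncertain for that reason.

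At the pseudocount of 1, Cxcl13 had the largest LPS difference of the 10 in both genotypes. In PBS libraries it was near the floor, at 0, 1.24 and 2.64 TPM in WT and 0.178, 1.81 and 0.156 TPM in KO, on 0 to 16 reads per library. After LPS it stood at 70.8, 112, 182 and 63.7 TPM in WT and at 103, 106, 85.7 and 40.8 TPM in KO, on 113 to 1594 reads. The log2 rise was 5.62 ± 0.50 in WT (SE, adjusted p = 1.12e-05, limma) and 5.67 ± 0.50 in KO (adjusted p = 9.85e-06), and its size rests on the pseudocount of 1 because the PBS values are so low. With a pseudocount of 5 it was 4.06 in WT and 3.89 in KO, and with 0.1 it was 7.10 and 7.26. At 5, Cxcl10 came slightly above Cxcl13 in WT.

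Cxcl16 varied little at rest, at 28.8 to 34.8 TPM over the 6 PBS libraries. Under LPS its range was 90.4 to 189.7 TPM (WT) and 97.4 to 122 TPM (KO). Its rise was the smallest in WT, 1.82 ± 0.19 on the log2 scale (SE, adjusted p = 3.77e-05, limma), and was 1.71 ± 0.19 in KO (adjusted p = 4.70e-05). Zmynd15, which shares exon bases with it on the opposite strand, moved with it, at 5.30 to 9.23 TPM in PBS and 18.2 to 35.4 TPM in LPS libraries, and reads of the shared bases cannot be told apart.

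Ordered by mean TPM, the ranking of the 10 genes changed between PBS and LPS. In WT PBS the order ran from Ccl3 (341 TPM) over Ccl12, Ccl4, Cxcl2, Ccl2, Cxcl16, Ccl7 and Ccl5 to Cxcl10 (5.73 TPM) and Cxcl13 (1.29 TPM). Library ranges of neighbours in that order did not overlap between Ccl3 and Ccl12, Cxcl16 and Ccl7, Ccl7 and Ccl5, or Ccl5 and Cxcl10, and overlapped for the others. In KO PBS the ranges parted between Ccl4 and Ccl2, Ccl2 and Ccl7, Cxcl2 and Cxcl16, Cxcl16 and Ccl5, and Cxcl10 and Cxcl13. In both LPS groups, Ccl12, Ccl3 and Ccl4 came first, and every neighbouring pair overlapped. Cxcl10 was sixth in WT LPS at 277 TPM and last in KO LPS at 52.1 TPM.

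The KO to WT comparison under PBS asks whether resting microglia of KO mice, in which Rheb mRNA was reduced but present, express more or less of these chemokines. By limma 0 of 10 were called, against 1.02% of all genes tested, and 1 of 10 had an unadjusted p under 0.05, against 15.7% of all genes. The log2 differences ran from -0.48 (Cxcl2) to 1.05 (Ccl12), with 7 of 10 above 0 and a median of 0.44. That median was 0.26 without KO_PBS_911, 0.34 without WT_PBS_914, which carried pituitary transcripts, and 0.66 without KO_PBS_915. The largest difference was that of Ccl12, with a mean of 286 ± 43.5 TPM in KO against 141 ± 43.7 TPM in WT (SD, n = 3 each). The log2 difference was 1.05 ± 0.33 (SE, adjusted p = 0.156, limma), and leaving out libraries it ran from 0.77 to 1.23. The exact permutation p of Ccl12 was 0.1, the smallest that 3 libraries against 3 allow. It was the only one of the 10 whose groups did not overlap, and 14.9% of all genes had KO above WT without overlap. Ccl2 had 47.4 ± 15.0 TPM in WT and 83.6 ± 24.8 TPM in KO (log2 difference 0.81, adjusted p = 0.324), and Ccl7 had 24.6 ± 2.45 and 40.9 ± 13.5 TPM (0.66, adjusted p = 0.457). The Ccl7 values in KO were uneven, with 49.1 and 48.1 TPM in KO_PBS_911 and KO_PBS_912 and 25.3 TPM in KO_PBS_915. KO_PBS_915 was the lowest KO PBS library for 9 of the 10 genes. Cxcl16 differed by -0.04 ± 0.20.

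Under LPS, the same comparison found all 10 genes lower on average in KO and none past the test. By limma 0 of 10 were called, against 0.497% of all genes, and 4 of 10 had an unadjusted p under 0.05, against 11.7% of all genes. The log2 differences ran from -1.89 (Cxcl10) to 0.00 (Ccl2), with a median of -0.33, where all genes had 0.07. Ccl5 came nearest to the threshold, its mean being 52.4 ± 15.0 TPM in KO against 163 ± 125 TPM in WT (SD, n = 4 each), or 32.1% of WT. Its log2 difference was -1.40 ± 0.37 (SE, adjusted p = 0.116, limma), and its adjusted p ranged from 0.0754 to 0.596 over the other settings. WT_LPS_3 carried part of that size: without it the WT mean of Ccl5 was 102 ± 26.96 TPM (SD, n = 3), KO stood at 51.4% of it, and limma gave -0.96 (adjusted p = 0.118). The exact permutation p of Ccl5 was 0.0286, the smallest that 4 libraries against 4 allow. Ccl5 was the only one of the 10 whose LPS groups did not overlap, and 1.96% of all genes had KO below WT without overlap. Cxcl10 had 277 ± 336 TPM in WT and 52.1 ± 34.6 TPM in KO (log2 difference -1.89 ± 0.64, adjusted p = 0.247, exact permutation p = 0.0857). Without WT_LPS_3 the WT mean of Cxcl10 was 110.4 ± 48.9 TPM (SD, n = 3), KO stood at 47.2% of it, and limma gave -1.16 (adjusted p = 0.385). Ccl4 had 979 ± 384 and 511 ± 309.8 TPM (-1.02, adjusted p = 0.321), and Ccl3 had 1716 ± 687 and 1067 ± 522 TPM (-0.73, adjusted p = 0.423). The 8 microglial markers also summed lower in KO LPS, to 9156 to 12896 TPM against 12973 to 16581.5 TPM in WT LPS. Of these markers, 2 of 8 were called lower, Tmem119 and Fcrls, against 0.497% of all genes in either direction. Tmem119 names the Cre allele that only KO mice carried, and its difference cannot be told apart from that allele. Under PBS, 1 of 8 was called lower in KO, again Tmem119 (-0.70, adjusted p = 0.0390, limma), and 1 higher, Olfml3, against 1.02% of all genes. The part of the lower marker sum in the chemokine values was not tested.

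The CCR2 ligands, Cxcl2, Cxcl13 and Cxcl16 were closer between the genotypes under LPS. Ccl2 stood at 424 ± 218 TPM in WT and 407 ± 138 TPM in KO, Cxcl13 at 107 ± 54.5 and 83.8 ± 29.98 TPM, and Cxcl16 at 124 ± 44.3 and 107 ± 11.2 TPM. The common sign rested on single libraries. Without WT_LPS_3, 6 of 10 genes remained below 0 and the median was -0.08, with Ccl2 at 0.31, Cxcl2 at 0.32, Ccl7 at 0.16 and Cxcl16 at 0.06. Without KO_LPS_3, one of the libraries with pituitary transcripts, 7 of 10 were below 0, and without KO_LPS_4, the library of least depth, 8 of 10.

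**Figure D2:**
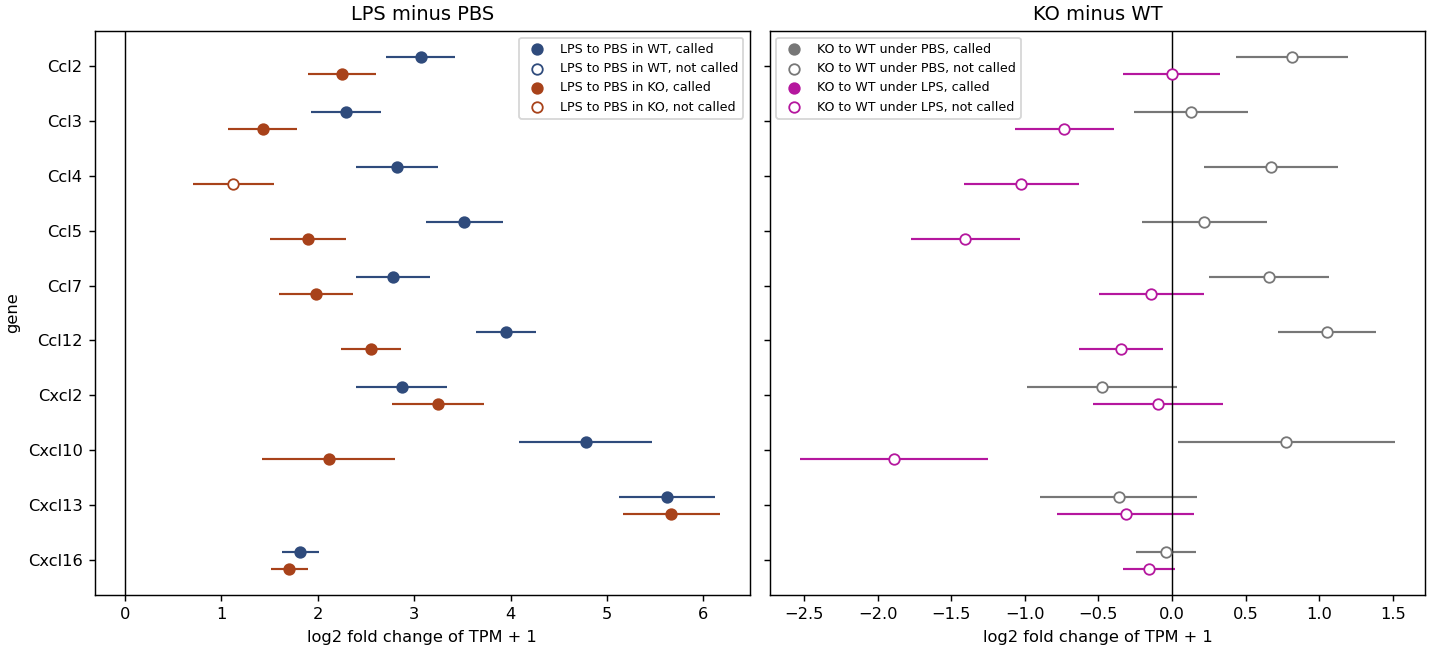
Log2 fold changes of TPM + 1 with their standard errors from limma for the 10 genes, LPS minus PBS on the left and KO minus WT on the right, with filled points for called genes and open points for the others. On the left all points lie right of 0 and the Ccl4 point of KO is the open one. On the right all points are open, 7 of 10 PBS points lie above 0 and all LPS points lie at or below it.

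Whether the LPS difference itself depended on genotype was tested by the interaction term, in which a negative value means a smaller LPS difference in KO. By limma 0 of 10 genes were called, as were 0% of all genes, and 4 of 10 had an unadjusted p under 0.05, against 9.51% of all genes. These 4 were Cxcl10 (-2.66 ± 0.98 SE), Ccl4 (-1.70 ± 0.60), Ccl5 (-1.62 ± 0.56) and Ccl12 (-1.40 ± 0.44), with adjusted p from 0.435 for Ccl12 to 0.48 for Cxcl10. In all, 8 of 10 were below 0, with a median of -0.84, where all genes had 0.05. Ccl2, Ccl3 and Ccl7 had -0.82, -0.86 and -0.80, while Cxcl16 had -0.12 ± 0.27, Cxcl13 0.05 ± 0.71 and Cxcl2 0.38 ± 0.67. Without WT_LPS_3 the median was -0.56 and 7 of 10 were below 0. Voom on the recovered reads likewise called 0 of 10 in the interaction and in both KO to WT comparisons.

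The library with the highest values was the same for all 10 genes in WT LPS and differed between genes in the other groups. WT_LPS_3 was the highest WT LPS library for all 10 genes, by 0.61 to 2.17 above the group mean on the log2 scale, while its median over all genes was -0.03. It also had the highest monocyte and neutrophil marker sums of its group, 2457 and 21591 TPM, whose part in its chemokine values was not tested. KO_LPS_1 was the highest KO LPS library for 7 of 10 genes and KO_LPS_2 for the other 3, Ccl5, Ccl12 and Cxcl13. KO_LPS_3 was the lowest for 8 of 10. In WT PBS the highest library was WT_PBS_913 for 6 genes, WT_PBS_914 for 3 (Cxcl2, Cxcl13 and Cxcl16) and WT_PBS_904 for Ccl12.

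**Figure D3:**
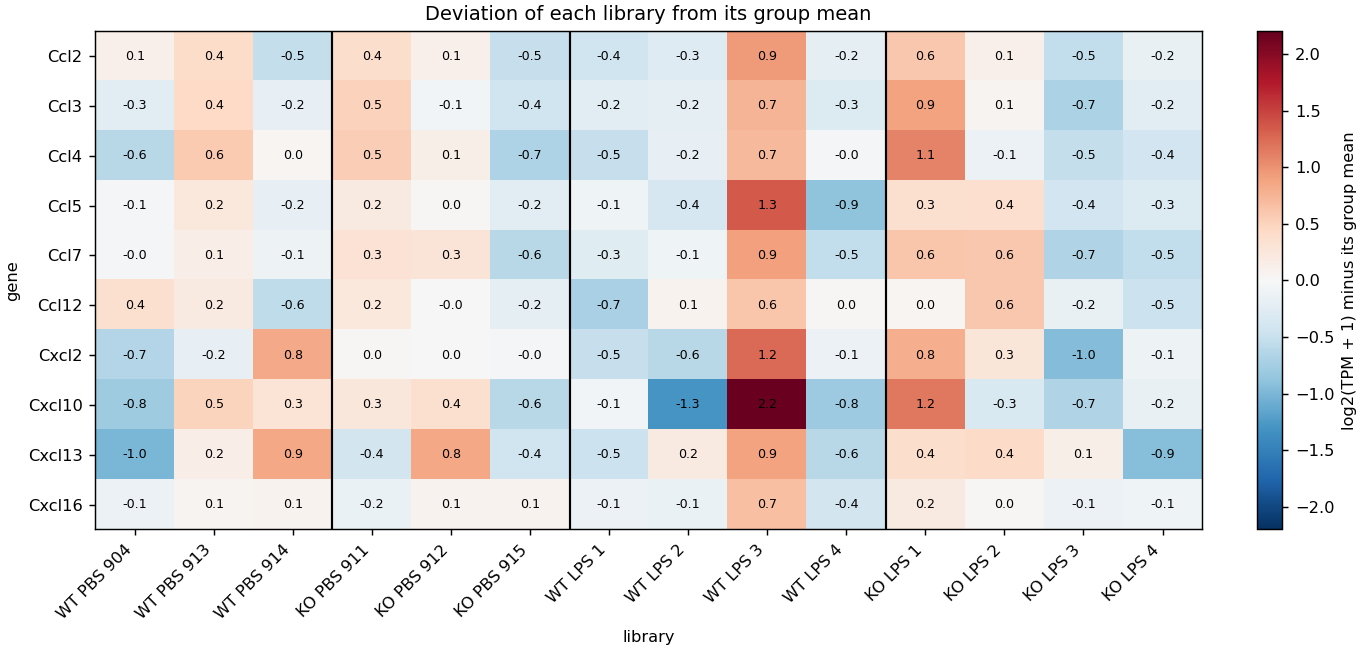
Difference of log2(TPM + 1) from its group mean for each of the 10 genes (rows) in each of the 14 libraries (columns), red above and blue below, with lines between the groups. The WT_LPS_3 column is red for all 10 genes, from 0.61 for Ccl12 to 2.17 for Cxcl10.

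After the group means were subtracted, likeness between genes was measured by Pearson's r over the 14 libraries, which share depth and cell make-up within a library. WT_LPS_3, which lay above its group mean for all 10 genes, weighs on the r of every pair among them. The closest pair among the 10 was Ccl3 and Ccl4 (r = 0.927), neighbours on the chromosome, followed by Ccl3 and Ccl2 (0.909) and by Ccl5 and Cxcl16 (0.887). The correlation of ranks was 0.890 for Ccl3 and Ccl4 and 0.789 for Ccl3 and Ccl2. Cxcl13 and Ccl12 were least alike (0.220). Among 11117 tested genes whose mean over all libraries reached 5 TPM, the nearest to Ccl3 were Rab20 (0.966) and Tnfaip3 (0.955), an inhibitor of NF-kB signalling. Nearest to Ccl4 were Nfkbiz (0.961), a nuclear regulator of NF-kB targets, and Rab20 (0.946). Nearest to Ccl2 were Rnf19b (0.930) and Adora2b (0.918), to Ccl5 Fth1 (0.966), the ferritin heavy chain, and Tgfbi (0.939), and to Ccl7 Atp6v1a (0.918) and Hspa5 (0.905). Ccl12 was nearest to Pik3r5 (0.948) and Rbpj (0.946), Cxcl2 to Mrgpra2b (0.951) and Lmnb1 (0.942), and Cxcl10 to Cd69 (0.956) and Sap30 (0.948). Cxcl13 was nearest to Smn1 (0.914) and Foxp4 (0.902), and Cxcl16 to Impdh2 (0.959) and Parp10 (0.953). With so many genes to choose from and 14 libraries, such values describe these libraries and carry no test.

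The other chemokine ligands moved in both directions. Of 27 listed, 26 were matched and 17 passed the filter on low values. In WT, 3 of the 17 rose with LPS and 3 fell, and in KO 5 rose and 2 fell. Over all genes tested, 7.95% rose and 34.1% fell in WT, and 7.82% rose and 26.9% fell in KO. Between the genotypes 0 of the 17 were called under PBS or LPS, against 1.02% and 0.497% of all genes. Cxcl1, a CXCR2 ligand that lies beside Cxcl2, rose from 4.04 ± 2.56 to 45.9 ± 15.2 TPM in WT and from 1.75 ± 0.525 to 44.8 ± 26.9 TPM in KO (log2 3.28 and 3.88). Ccl9 rose by 0.59 in WT and 0.50 in KO, and Ccl8, next to Ccl12 and a ligand of monocyte-attracting receptors, rose in KO by 1.48, with 0.95 in WT (adjusted p = 0.0506, limma). Xcl1, a ligand of dendritic cells, rose in WT by 1.42, from a listed 0 in all WT PBS libraries to a mean of 1.81 TPM, and had 0.22 in KO. Cxcl3, a further CXCR2 ligand, rose in KO by 1.41, to a mean of 2.08 TPM, and had 1.28 in WT (adjusted p = 0.0519, limma). Ccl27a fell in WT by 1.08 and had -0.66 in KO. Ccl17 and Ccl24, attractants of type 2 immune cells, fell in both genotypes: Ccl17 from 12.2 to 2.94 TPM in WT and from 10.3 to 1.90 TPM in KO, and Ccl24 from 14.6 to 5.51 TPM in WT and from 18.0 to 3.65 TPM in KO. Over the 17 the median log2 difference was -0.26 in WT and 0.29 in KO.

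Of the 23 chemokine receptor genes, 17 passed the filter. With LPS 6 rose and 2 fell in WT, against 7.95% and 34.1% of all genes. In KO 4 rose and 2 fell, against 7.82% and 26.9%. Between the genotypes 0 were called, against 1.02% of all genes under PBS and 0.497% under LPS. Ackr1, a receptor that binds chemokines without signalling and is known from venular endothelium and red cells, had the largest change, from 1.89 ± 0.941 to 174 ± 65.0 TPM in WT and from 2.33 ± 0.926 to 150.1 ± 48.8 TPM in KO. Ccr1, a receptor for Ccl3, Ccl5 and Ccl7, rose from 48.6 to 131 TPM in WT and from 46.7 to 144 TPM in KO, and Cxcr2, the receptor for Cxcl1 and Cxcl2 on neutrophils, from 32.8 to 100.1 TPM in WT and from 23.4 to 91.4 TPM in KO. Ccrl2, a chemerin-binding receptor that does not signal, rose in WT from 49.9 to 172 TPM (log2 1.71) and had 0.39 in KO, from 81.5 to 127 TPM. Ackr3, a scavenger of CXCL12, fell in WT by 0.80 and had -0.64 in KO, and Cxcr3, the receptor of Cxcl10, fell in KO by 1.09 and had -0.59 in WT. Cx3cr1, the fractalkine receptor of microglia, fell from 3766 ± 334 to 2277 ± 360.2 TPM in WT and from 4302 ± 109 to 1858 ± 495 TPM in KO.

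**Figure D4:**
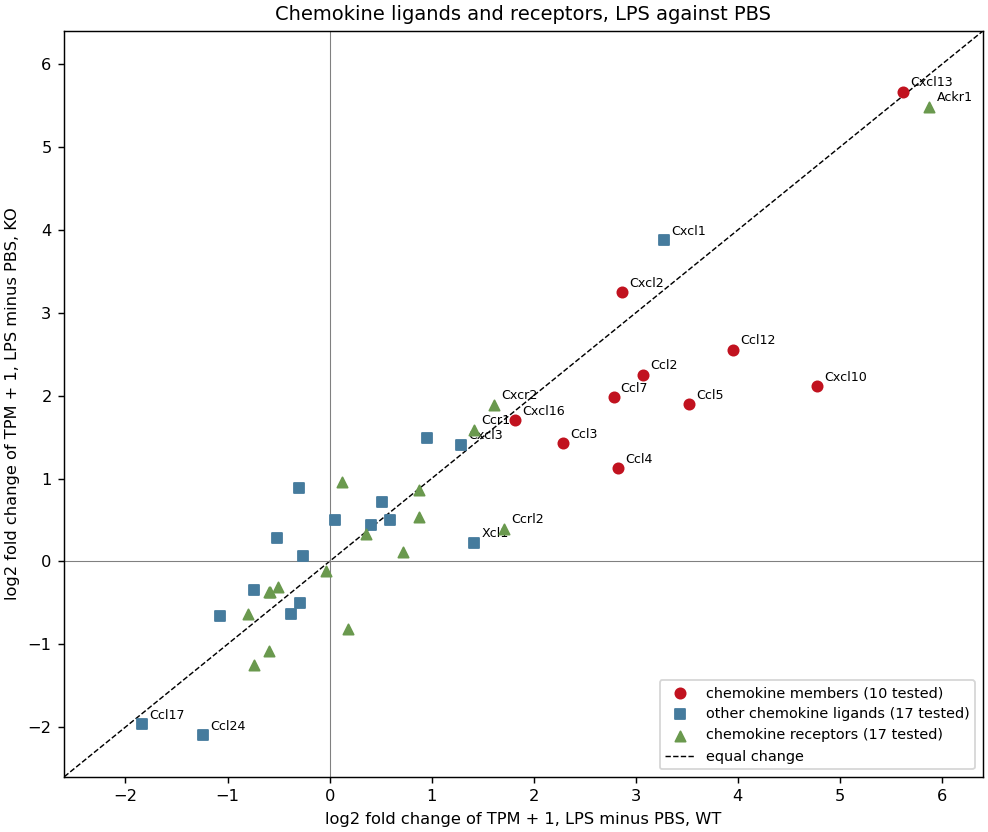
Log2 fold change of TPM + 1 from PBS to LPS in WT (horizontal) and KO (vertical) for the 10 chemokine genes, 17 other ligands and 17 receptors, with a dashed line of equal change. Cxcl13, Cxcl16 and Cxcl2 lie near or above the line, and the other 7 chemokine genes lie below it, Cxcl10 at 4.78 and 2.12.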

How the data were processed

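Total RNA, per the labels, was extracted with TRIZOL and made into Illumina libraries. The authors' deposited table holds TPM per Ensembl gene ID in 14 libraries. FastQC 0.11.9, cutadapt 4.4, STAR 2.7.10b, featureCounts 2.0.1 and the build hg38 are named per the submitters' processing notes, although the gene IDs are mouse. Strand is not given in the sources used here. Symbols were matched for 41588 of 41739 IDs, and 12553 genes were at 0 in all libraries.

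From the deposited TPM, log2(TPM + 1) was computed here and all 14 libraries were fitted together by limma (3.58.1, under R 4.3.3), with a mean for each of the 4 groups, which then share one estimate of the spread, and with that estimate following the gene's level. A gene was tested where 3 or more libraries reached 1 TPM, which 18724 genes did. The p-values were adjusted by Benjamini-Hochberg over all of them, and an adjusted p under 0.05 was called. Fold changes are on this scale, which understates changes of low genes. Exact two-sided permutation tests of mean TPM used scipy 1.17.1 in Python 3.11.15. With exon lengths of an annotation, 98.4% to 98.6% of nonzero TPM values gave whole reads within a tolerance of 0.02 reads, and the precision of low values is limited by these reads. The fits were tested on simulated data. Alternatives were the pseudocount, the filter, scaling, removal of Gm23935, moderation, leaving out libraries, a replicate block and, chosen after seeing the data, voom on the recovered reads.

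The 10 genes, the gene lists and the tests were chosen with earlier results of these data known. Of other lists, genes were named from the up to 3 called genes per direction and LPS comparison with the largest fold change, and a gene named for one genotype is given in both. Exceptions are stated. Whether replicate numbers pair LPS libraries was checked by the correlation of same-numbered WT and KO deviations, given with the alternatives below. The values of 1 receptor gene are not reported here.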

Additional observations from a re-analysis of the deposited data

Results flagged for a closer look

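In the 2 LPS groups of 4 libraries, 6 of 20 sets of 4 TPM values held a library far from the other 3 by Dixon's 95% criterion. There, the gap to the nearest library takes up most of the whole range. Chance gives about 1 in 20 only for normally distributed values. The criterion was applied to TPM and not to log2(TPM + 1), and TPM that are skewed upwards give more high flags. All 6 flags were high values, so their number cannot be set against 1 in 20. In WT, WT_LPS_3 stood above the others with 749 TPM for Ccl2, 2746 TPM for Ccl3, 876 TPM for Cxcl2 and 778 TPM for Cxcl10. In KO, KO_LPS_1 stood above the others with 972 TPM for Ccl4 and 104 TPM for Cxcl10. The 6 values come from only 2 libraries and are not independent of each other.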

How the results depend on the processing

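The number of the 10 genes called stayed at 10 for LPS in WT and at 0 in both KO to WT comparisons and the interaction under every alternative run, and was 8 to 10 for LPS in KO. There, Ccl4 gained a call under 7 of 26 alternatives, Cxcl10 lost its call under 6 (without a filter, adjusted p = 0.0554, limma; with voom, 0.251; the others leave out single KO libraries) and Ccl5 lost its call with voom (0.0947). The share of all genes called ranged from 0.043% to 2.07% for KO to WT under PBS, 0% to 1.64% under LPS, 25.2% to 51.4% for LPS in WT, 19.8% to 47.7% in KO and 0% to 0.0164% for the interaction. Sign changes were limited to differences that were not called. KO minus WT under LPS, leaving out libraries, ran from -0.20 to 0.31 for Ccl2, -0.34 to 0.16 for Ccl7, -0.37 to 0.32 for Cxcl2 and -0.29 to 0.064 for Cxcl16, and voom gave 0.0051 for Ccl2. Under PBS it ran from -0.12 to 0.35 for Ccl3, -0.87 to 0.064 for Cxcl13 and -0.11 to 0.035 for Cxcl16. The interaction ran from -0.42 to 0.55 for Cxcl13, -0.25 to 0.10 for Cxcl16 and -0.036 to 0.79 for Cxcl2, and for Cxcl13 was -0.17 with a pseudocount of 5, -0.037 with median-of-ratios scaling and -0.041 with quantile normalisation. The causes of these changes were not tested. Same-numbered WT and KO LPS libraries had correlations of deviations of 0.0608, -0.0563, -0.0862 and -0.0260, inside the range of differently numbered ones (-0.0918 to 0.0937). So few values cannot exclude a pairing, which the labels do not state. A fit with the replicate block called 0 of 10 genes. Depth limits the PBS values of Cxcl13 (0 to 16 reads), Cxcl10 (27 to 130) and Ccl5 (46 to 70).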

Other observations

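Transcription factors known to act on chemokine promoters moved in both directions with LPS. Of 16 tested, 9 rose and 2 fell in WT, and 5 rose and 2 fell in KO. Over all genes tested, 7.95% rose and 34.1% fell in WT, and 7.82% rose and 26.9% fell in KO. Between genotypes, limma called 0 of the 16 under PBS or LPS, against 1.02% and 0.497% of all genes. Cebpb, a factor of acute inflammation, rose from 20.8 to 307 TPM in WT and from 37.4 to 285 TPM in KO, on the log2 scale by 3.77 and 2.89. Relb and Nfkb2, subunits of the alternative NF-kB pathway, rose by 2.51 and 1.90 in WT and by 2.17 and 1.62 in KO. Irf7, a factor of the interferon response, rose by 1.91 in WT and had 1.15 in KO (adjusted p = 0.0713, limma). Irf8 and Irf5 fell by 0.40 and 0.51 in WT and by 0.86 and 0.77 in KO. Under LPS, the smallest p of the list between genotypes was that of Stat2, which transmits interferon signals (log2 difference -0.82, adjusted p = 0.0922, limma).

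Among 8 genes of chemokine mRNA decay and CXCL16 shedding, 1 rose and 2 fell with LPS in WT, and 1 rose and 4 fell in KO. For these and the immediate early genes below, the shares of all genes were 7.95% up and 34.1% down in WT. In KO they were 7.82% up and 26.9% down. Zc3h12a, the RNase Regnase-1, rose by 1.47 in WT and 1.19 in KO on the log2 scale. Zfp36l2, an mRNA decay factor, fell by 0.81 and 1.05. Khsrp, an RNA-binding decay factor, fell by 0.36 and 0.43, and Adam10, a protease that sheds CXCL16, fell in KO by 0.54 and had -0.20 in WT. Of 17 immediate early genes, 4 rose and 1 fell in WT, and 3 rose and 3 fell in KO. Ier3 and Nr4a1 rose most, by 2.96 and 1.64 in WT and by 2.61 and 2.58 in KO, and Jun fell by 0.79 and 1.15.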
